A study of Labrus bergylta with 25 samples.

Results

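Ballan wrasse (Labrus bergylta) is a marine fish that has no stomach, and food enters directly into the bulbous, the wide first segment of its intestine. The 100 genes described here are those whose mean level in the bulbous was set apart by cellulose alone, when compared with hydrolyzed protein, hydrolyzed lipid and an empty lumen. They were chosen by a rule that read the measured values of all 25 libraries, from 19033 genes tested of 20208 in the table. A gene was tested when its normalized count exceeded 10 in at least 5 libraries. For each tested gene the 4 treatment means of log2(normalized count + 1) were sorted, and the gene qualified when the largest of the 3 gaps between neighbouring means left cellulose by itself on one side. The qualifying genes were ranked by that gap divided by the pooled SD within groups, and the first 100 became the members.

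The intestines came from female juveniles that had been fasted for a day, and each was removed from the fish before it received its bolus. A bolus weighing 0.1% of body weight was placed in the lumen, and the organ was then kept for 60 min in Ringer's solution at 14 °C. The protein group (n = 6) received casein digested with trypsin, to which a protease inhibitor was added, and the lipid group (n = 6) received cod liver oil digested with lipase, with Tween 20 as emulsifier. The cellulose group (n = 7) received microcrystalline cellulose powder in water with a little Brilliant Blue dye, and the empty group (n = 6) received nothing. The dye was given with cellulose and with no other bolus. Only cellulose was made up in plain water. Protein was in ammonium bicarbonate with hydrochloric acid, and lipid was mixed with phosphate-buffered saline. Cellulose, its dye and its water therefore cannot be told apart in these data. Every library was made from the bulbous of 1 isolated intestine, and an organ cut off from blood and outside nerves limits all 4 groups as a model of a feeding fish.

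Cellulose is a plant polymer that vertebrates do not digest with their own enzymes, so it delivers few absorbable products. A cellulose bolus can fill and stretch the gut wall while it is present. In its separate motility experiment, the paper reports that cellulose left the bulbous sooner than protein or lipid. The shortest times for cellulose were under the incubation time used here. Whether each bulbous still held its bolus when tissue was taken was not tested. Stretch is sensed by intrinsic neurons and smooth muscle of the gut wall, and the paper places mechanoreceptors in the gut mucosa too. Digested protein and lipid are sensed by enterocytes and by enteroendocrine cells, which release peptide signals.

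The table names genes by identifiers and gives no gene symbols, and 0 of the identifiers matched the RefSeq gene table for this species. No member could be given a name, function or sequence, and the tissue could not be checked against marker genes of enterocytes, smooth muscle or neurons. The members are therefore described by their levels, and the 2 highest ratios on each side by identifier. In whole tissue, a lower value from fewer cells of a type and one from less RNA per cell cannot be told apart.

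Depth was recovered as whole reads in 23 of the 25 libraries and ranged from 10.16 M to 31.587 M reads. The cellulose libraries held 14.06 ± 3.66 M reads (SD, n = 7) and the other libraries with recovered reads 15.3 ± 4.66 M (SD, n = 16), with p = 0.622 in a two-sided exact permutation test (0.932 after Benjamini-Hochberg adjustment over 3 measures). The number of genes listed at 0 was 260 ± 189 in cellulose and 255 ± 249 in the other libraries (exact permutation p = 0.939, adjusted 0.939). The most abundant gene took 4.76% ± 1.01 of the signal in cellulose and 5.17% ± 1.35 in the others (exact permutation p = 0.494, adjusted 0.932). The part of these measures in the values of the members was not tested beyond these comparisons.

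Of the 100 members, 41 had their highest mean in cellulose and 59 had their lowest. The gap between cellulose and the nearest other group had a median of 0.47 on the log2 scale, a 1.39-fold difference, and ranged from 0.14 (1.10-fold) to 2.26 (4.80-fold). It reached 0.5 in 44 members, 14 above and 30 below, and 1 in 13 members, 5 above and 8 below. In members above, the median gap was 0.42 (1.34-fold), and in members below it was 0.51 (1.42-fold). These sizes were what the rule selected on and are given as a description. Most members thus had a modest shift in the cellulose mean.

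**Figure D1:**
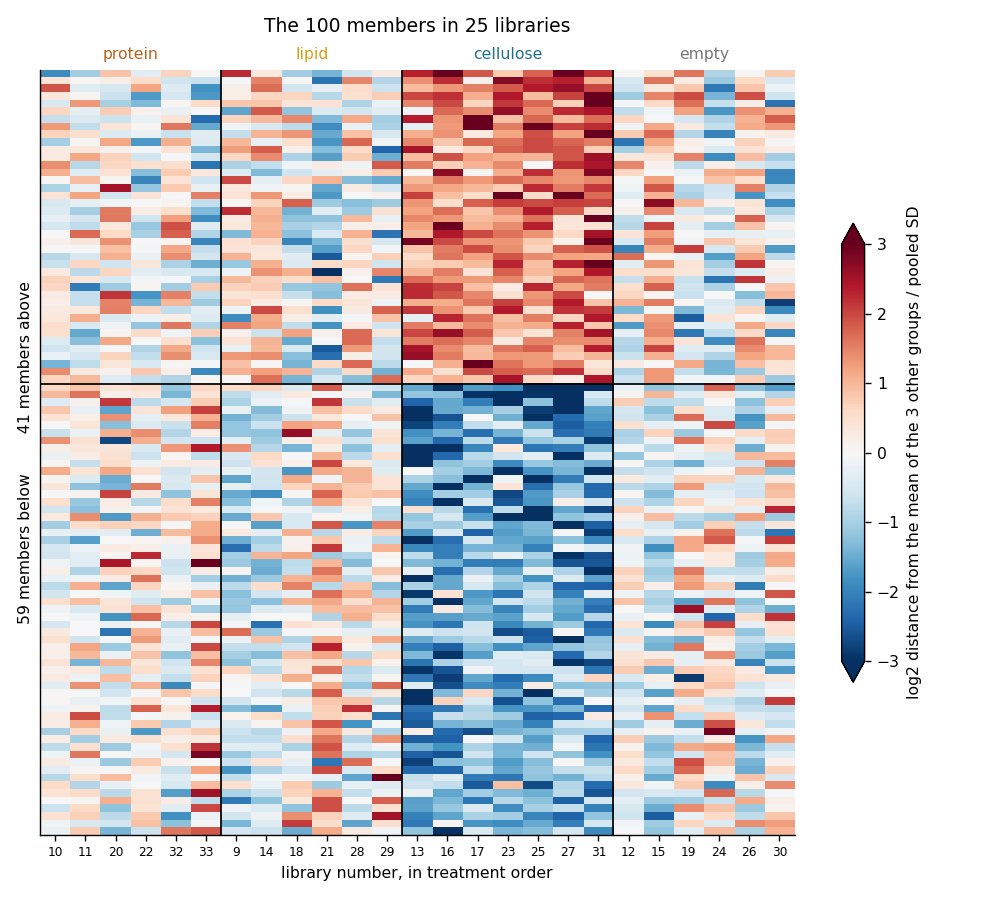
The 100 members (rows, 41 above and 59 below) in the 25 libraries (columns, by treatment), coloured by the log2 distance from the mean of the 3 other groups in units of the pooled SD within groups. The 7 cellulose columns carry most of the deep colour, which the choice of the members fixes, and single libraries of the other groups, such as empty library 15, lean the same way.

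The mean of each of the other 3 groups lay close to its fellows: their span had a median of 0.13 on the log2 scale and ranged from 0.0039 to 1.26. The empty group was nearest to cellulose in 46 members, lipid in 35 and protein in 19. Protein was farthest in 47 members, lipid in 29 and empty in 24. For the members above, cellulose exceeded protein by a median of 0.50, lipid by 0.49 and empty by 0.46 on the log2 scale. In members below, the median log2 differences were -0.63 from protein, -0.52 from lipid and -0.52 from empty. Over all 3952 genes with cellulose alone, the empty group was nearest in 41.6%, lipid in 31.7% and protein in 26.7%, and protein was farthest in 40.8%, lipid in 31.5% and empty in 27.6%. The rule read these means, and the difference between members and the 3952 genes was not tested.

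The ratio of gap to pooled SD had a median of 1.26 among the members and ran from 1.14 to 2.17. Members just inside the limit had ratios of 1.142, 1.140 and 1.137 with log2 gaps of 0.54, 0.74 and 0.42, and the genes just outside had 1.137, 1.134 and 1.132 with log2 gaps of 0.27, 0.43 and 0.58. No step in the ratio separated members from the genes left out. Over all 3952 genes with cellulose alone, the median log2 gap was 0.21 and the median ratio 0.52. The median pooled SD was 0.36 in the members, 0.39 over the 3952 genes and 0.40 over all genes tested. Ranking by gap over SD favours large gaps and small SDs, so both are given as a description.

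**Figure D2:**
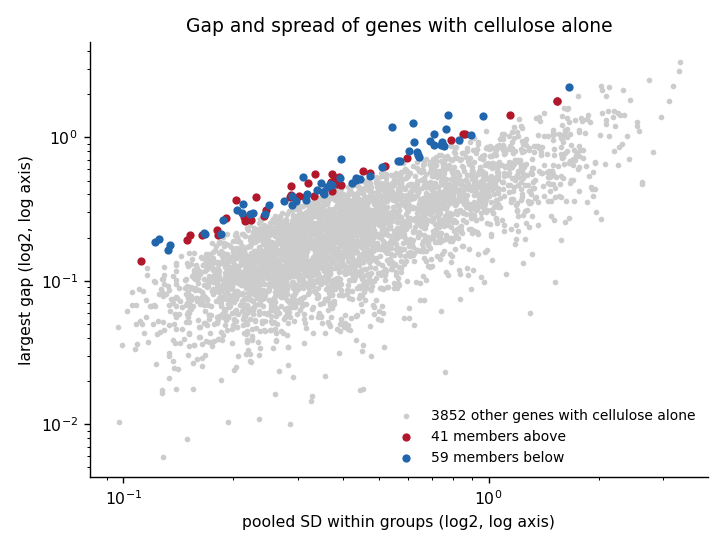
Largest gap (log2, vertical) against pooled SD within groups (log2, horizontal) for the 3952 genes whose largest gap left cellulose alone, both on log axes. The 41 members above and 59 below form the upper edge of 1 continuous cloud, across the range of the SD.

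The same rule was applied with each of the other treatments in the place of cellulose. Cellulose stood alone in 3952 genes, which is 20.8% of those tested, protein in 3772 (19.8%), empty in 3678 (19.3%) and lipid in 2135 (11.2%). In the remaining 5496 genes (28.9%) the largest gap split the treatments into pairs. The top 100 for protein had a median ratio of 1.36, for empty 1.40, for cellulose 1.26 and for lipid 1.02. Cellulose had 7 libraries and each other group 6, so these ratios come from unequal groups. Members below outnumbered those above in all 4 lists of 100, with 69 for protein, 70 for lipid, 67 for empty and 59 for cellulose. Over all qualifying genes the split was nearly even for cellulose (1954 above, 1998 below) and protein (1870 and 1902). It was 927 and 1208 for lipid and 1587 and 2091 for empty.

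The highest ratio among the 100 members belonged to LABE_00025806-RA, a gene below in cellulose. Its normalized counts in cellulose libraries were 276.8, 130.0, 263.6, 246.2, 136.3, 109.5 and 142.1, or 186 ± 72.2 (SD, n = 7). In the protein group the lowest was 321.4, the median 610.3 and the highest 676.8 (570 ± 126, SD, n = 6), and in the lipid group the lowest was 393.9, the median 518.9 and the highest 980.9 (578 ± 222, n = 6). In the empty group the lowest was 261.5, the median 334.0 and the highest 961.9 (442 ± 263, n = 6). No protein or lipid library fell within the cellulose range, and 1 empty library, at 261.5, did. The log2 differences of cellulose were -1.66 from protein, -1.64 from lipid and -1.18 from empty, each with an SE of 0.28. Without empty library 24, the one at 961.9, the gap shrank to -0.92 and the direction stayed.

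LABE_00021316-RA, the second member below, was a rare transcript. Its cellulose libraries held 5, 4, 3, 1, 3, 1 and 6 reads, or 3.76 ± 2.83 in normalized counts (SD, n = 7). The protein group ran from 5.33 to 21.5 normalized counts with a median of 12.2 (13.1 ± 5.42, SD, n = 6), the lipid group from 5.37 to 11.9 with a median of 9.49 (9.08 ± 2.45, n = 6), and the empty group from 6.81 to 16.4 with a median of 9.91 (10.7 ± 3.33, n = 6). Its lowest cellulose library was at 0.966 and its highest at 8.36, and protein library 32 at 5.33, lipid libraries 29 at 5.37 and 9 at 7.21, and empty library 30 at 6.81 lay inside that range. The log2 gap to the nearest group, lipid, was -1.27 with a pseudocount of 1 and -0.73 with a pseudocount of 5, so its size depends on the pseudocount added to a few reads.

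LABE_00054532-RA had the highest ratio among the members above. Its cellulose libraries stood at 393.8, 434.0, 369.0, 316.7, 364.2, 430.7 and 385.8 normalized counts, or 385 ± 40.7 (SD, n = 7). The protein group ran from 217.6 to 320.3 with a median of 276.9 (275 ± 39.2, SD, n = 6), the lipid group from 233.1 to 389.1 with a median of 277.5 (286 ± 56.3, n = 6), and the empty group from 249.8 to 355.8 with a median of 294.0 (299 ± 35.6, n = 6). The lowest cellulose library, at 316.7, was passed by protein library 20 at 320.3, lipid library 9 at 389.1 and empty library 19 at 355.8. The log2 gap to the empty group was 0.36, or 1.29-fold, so this member ranked high through its small spread (pooled SD 0.20) and not through a large difference.

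LABE_00035390-RA, the other leading member above, was an abundant transcript. Its cellulose libraries stood at 2506, 2871, 2058, 3138, 2877, 2930 and 2375 normalized counts (2679 ± 378, SD, n = 7). The protein group ran from 1808 to 2204 with a median of 2052 (2015 ± 164, SD, n = 6), the lipid group from 1419 to 2558 with a median of 2009 (2049 ± 446, n = 6), and the empty group from 1682 to 2609 with a median of 1975 (2054 ± 330, n = 6). The means of the other 3 groups were nearly equal, while 8 of their 18 libraries exceeded the lowest cellulose library. After group means were removed, the deviations of the 2 leading members above correlated across 25 libraries with r = 0.11, and those of the 2 leading members below with r = 0.23. The pairs of a member above with a member below were not examined one by one.

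**Figure D3:**
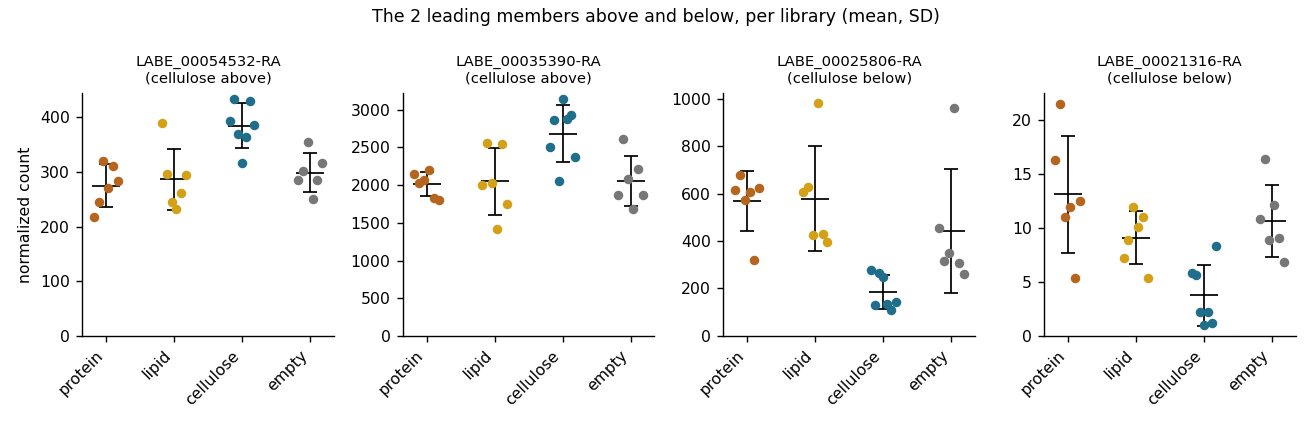
Normalized counts of the 2 leading members above and the 2 leading members below in each library (points), with the group mean and SD (bars), for 6 protein, 6 lipid, 7 cellulose and 6 empty libraries; axes start at 0. For LABE_00025806-RA 1 empty library reaches into the cellulose range, and for LABE_00035390-RA 8 of the other 18 libraries lie above the lowest cellulose library.

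No member separated cellulose from all other libraries. In 0 of the 100 members did all 7 cellulose libraries lie beyond all 18 others, and 0% of all tested genes did so. When members were chosen again without 1 library, the count was 1 without cellulose library 16, 25 or 31, empty library 19 or 30, or lipid library 14, and 0 without any other library. The share over all tested genes was not counted in those choices. Cellulose did not overlap protein in 12 members (0.525% of all tested genes), lipid in 8 (0.163%) and the empty group in 2 (0.0893%). Of the members, 82 overlapped with all 3 groups, 14 were free of overlap with exactly 1 group (0.715% of all tested genes) and 4 with exactly 2 groups (0.0315%). In 76 members, 35 above and 41 below, all 7 cellulose libraries lay on 1 side of the median of the other 18, which was the case for 7.18% of all tested genes. Because the rule read these same contrasts, nothing is read from the distance to those background shares.

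How far the groups mixed differed between members and between libraries. The number of other libraries past the least extreme cellulose library had a median of 6 of 18 and ran from 1 to 16. The most extreme library of all belonged to cellulose in 90 members, to empty in 6, to lipid in 3 and to protein in 1. Cellulose library 17 was the least extreme of its group most often, in 22 members, and cellulose library 31 the most extreme most often, also in 22. Among the other groups, empty library 15 reached past the least extreme cellulose library in 74 members, lipid library 14 in 71, empty library 26 in 61 and lipid library 9 in 58. Lipid library 21 did so in 14 members, protein library 33 in 18 and empty library 24 in 20. The rule read these same values, and the counts have no share over all tested genes beside them. They are a description, and no likeness of a library to cellulose is read from them.

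Averaged over the members with the sign turned toward cellulose, the log2 distance from the mean of the other 3 groups lay between 0.62 and 0.70 in the 7 cellulose libraries. In the other 18 it lay between -0.33 in lipid library 21 and 0.31 in empty library 15. The members varied together to a small degree within groups: with group means removed and signs turned toward cellulose, the mean pairwise correlation over 25 libraries was 0.16, and 74.2% of 4950 pairs were above 0. It was 0.085 for all 3952 genes with cellulose alone and 0.026 for all genes tested. The same mean was 0.22 among members above, 0.13 among members below, and 0.14, 0.064 and 0.026 for the top 100 of empty, protein and lipid. These correlations share libraries and scaling, and the rule used the same values, so they are a description.

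Within groups, the members had a median log2 SD of 0.30 in cellulose, 0.30 in protein, 0.34 in lipid and 0.40 in empty libraries. Over all genes tested these were 0.34, 0.37, 0.37 and 0.42. Members above were the tightest in cellulose, with a median SD of 0.21 against 0.35 for members below. Members above also had more reads in cellulose libraries, with a median of 340 against 69 for members below. The part of counting error in the difference of these SDs was not tested. A small SD raises the ratio that chose the members.

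A measure that the rule did not use for a library is the value of that library when the members are chosen without it. Each library was left out in turn, 100 members were chosen again from the other 24, and the left-out library was scored by how many members lay past the midpoint between the cellulose mean and the nearest group mean, on the cellulose side. When used in the choice, cellulose libraries had 63 to 82 members past the midpoint (76.4 ± 6.24, SD, n = 7). When left out, they had 44, 45, 26, 39, 41, 36 and 31 (37.4 ± 6.95, SD, n = 7). The other libraries had 3 to 51 when used in the choice (18.8 ± 13.57, SD, n = 18). When left out, they had 9 to 70 with a median of 32.5 (35.3 ± 17.97, SD, n = 18). Of these, 5 exceeded the highest left-out cellulose library, 8 lay within the cellulose range and 5 lay under it. Left-out cellulose libraries thus did not stand apart from left-out libraries of the other groups.

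By group, left-out protein libraries had a mean of 24.5 members past the midpoint, lipid libraries 37.0 and empty libraries 44.3. Empty library 15 had 70 and empty library 26 had 65, more than any cellulose library. The median position of a left-out cellulose library, with 0 at the nearest group mean and 1 at the cellulose mean, ranged from 0.081 to 0.43. This was above 0 and short of the midpoint in all 7. Of the 18 other libraries, 10 also had a median position above 0 when left out, and 4 were past the midpoint, at 0.64 in lipid library 9, 0.58 in lipid library 14, 0.82 in empty library 15 and 0.85 in empty library 26. Positions above 0 were thus not limited to cellulose libraries. Choosing genes by wide gaps moves both ends of this scale outward, so a left-out library of any group can lie above 0. Whether the position is particular to cellulose cannot be decided from it. The lists chosen in turn share most of their libraries and are not independent, so no test was made.

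**Figure D4:**
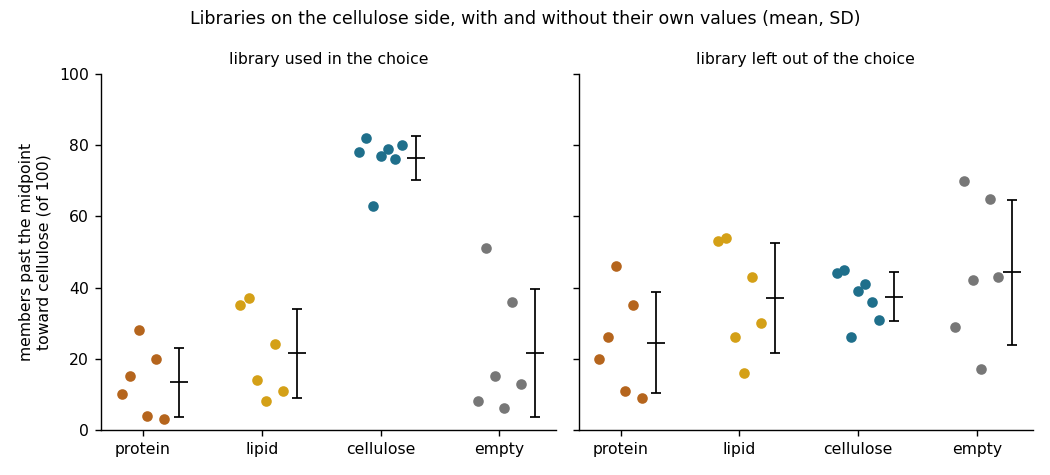
Number of members out of 100 past the midpoint toward cellulose (vertical) in each library (points), with mean and SD, for libraries used in the choice (left) and left out of it (right). The cellulose libraries fall from between 63 and 82 to between 26 and 45, inside the range of 9 to 70 of the other left-out libraries. Those other libraries lie between 3 and 51 when used in the choice.

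Membership itself moved with single libraries. Without 1 cellulose library, 54 to 67 of the 100 members were chosen again, with the fewest without cellulose library 31, and without 1 library of another group 66 to 88 were, with the fewest without empty library 26. All 25 choices shared 21 members, 6 above and 15 below, whose ratios in the full data were at least 1.40. The 3952 genes with cellulose alone became 4347 without cellulose library 17 and 3292 without empty library 24.

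The level of the members was close to that of other genes. In the 18 libraries without cellulose their mean normalized count had a median of 155 with quartiles of 36.6 and 443, against 157 with quartiles of 40.0 and 513 for all genes tested. Members above were more abundant, with a median of 310, than members below, with a median of 113. The 20 members with a level under 30 had a median log2 gap of 0.89, the 46 between 30 and 300 one of 0.48, and the 34 above 300 one of 0.29. Over all 3952 genes with cellulose alone the median log2 gaps in the same bands were 0.42, 0.22 and 0.15. Since members were chosen by gap over SD, a gene with a large SD could enter only with a large gap, and nothing is read from the trend with level. The cellulose libraries of 9 members, all of them below, had a median of under 10 reads, where counting error weighs most. Some members above were as rare in the other libraries with recovered reads. There LABE_00089789-RA had a median of 4 reads, LABE_00018517-RA 4.5 and LABE_00056236-RA 8.5, with log2 gaps of 1.78, 1.44 and 0.72. Cellulose libraries may have carried such genes past the filter of 10 in 5 libraries, which was not counted.

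**Figure D5:**
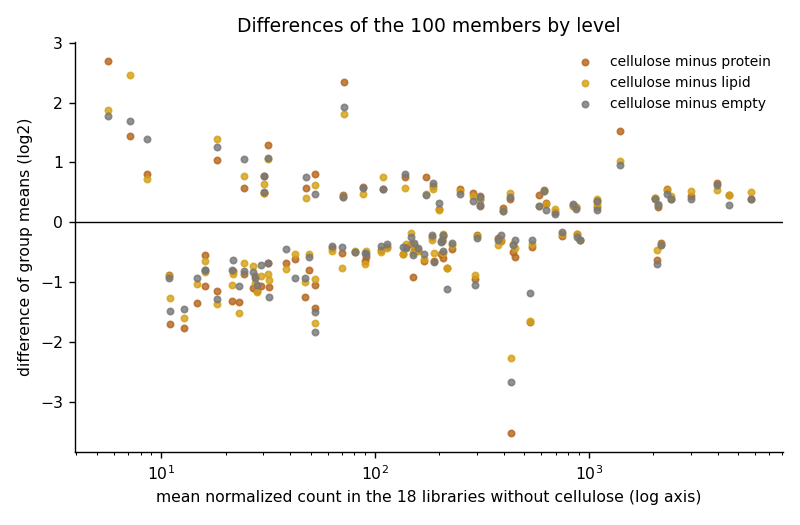
Difference of group means, cellulose minus protein, lipid or empty (log2, vertical), against the mean normalized count in the 18 libraries without cellulose (log axis) for the 100 members. Median gaps run from 0.89 in members with a level under 30 to 0.29 in those above 300.

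Each contrast was also fitted over all 19033 genes with limma. At an unadjusted p of 0.01, 43 members passed in cellulose against protein (17 above, 26 below), where 2.72% of all tested genes did. The count was 33 against lipid (17 above, 16 below; background 1.09%) and 26 against the empty group (11 above, 15 below; background 0.919%). Of the members, 10 passed in all 3 contrasts (0.0525% of all tested genes), 17 in exactly 2 (0.415%), 38 in exactly 1 (3.74%) and 35 in 0. Without protein library 33 the count against protein was 28, without lipid library 21 the count against lipid was 16, and without empty library 24 the count against the empty group was 17. Shares over all tested genes were counted in the full fit only, so nothing about the members is read from these lower counts. The rule chose the members on these contrasts, so the counts say how a test grades the choice and give it no support.

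After Benjamini-Hochberg adjustment over all genes, 0 members passed 0.05 in any cellulose contrast with limma, and 0 of all 19033 tested genes did. An unadjusted limma p under 0.05 was found for 97 members against protein (background 10.2%), 93 against lipid (5.91%) and 91 against empty (5.18%). On recovered reads of 23 libraries, edgeR called 0 members in all 3 contrasts, and 0 of all 19033 tested genes. The limma and edgeR counts of 0 thus set no member apart from other genes. DESeq2 called 13 members against protein (background 0.663%), 0 against lipid (background 0%) and 1 against the empty group (background 0.0368%). DESeq2 gave no adjusted p to 12 members against protein. The contrasts among the other treatments are bounded by the rule, which asks for a wider gap to cellulose. In protein against lipid 0 members passed an unadjusted p of 0.01 (background 0.447%), in protein against empty 0 (background 2.77%) and in lipid against empty 0 (background 0.788%) with limma. At an unadjusted p under 0.05 the counts were 0 (background 2.47%), 1 (9.81%) and 0 (4.74%) in those contrasts. After adjustment, edgeR made 0 calls among members and 0 among all 19033 tested genes. DESeq2 also made 0 among members. Over all genes it called 3 of 19010 in protein against lipid, 50 of 17166 in protein against empty and 1 of 19010 in lipid against empty. DESeq2 gave no adjusted p to 6 members in protein against empty. These contrasts share groups with those above and are not separate evidence.

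Numbers within the identifiers were compared because neighbouring numbers can belong to neighbouring gene models, although their order along the genome is not known here. Another member lay within 5 numbers of 2 members, against 1.31% of all tested genes. Both were above in cellulose, with log2 gaps of 1.81 and 0.19, and their deviations within groups correlated with r = -0.077 over 25 libraries.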

How the data were processed

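Bulbous RNA was sequenced as stranded single-end libraries, 1 per intestine. The authors trimmed reads with Trim Galore 0.4.2, aligned them with HISAT2, and counted with featureCounts. The paper names an Ensembl annotation and prints Ensembl gene identifiers, whereas the deposited table uses identifiers of another form. Whether its counts come from the annotation named in the paper is not known here. The deposited table holds a signal: gene counts that DESeq2 size factors had scaled. In all 25 libraries the low values were whole multiples of 1 step (100% within 0.1). Reads were recovered from that step in 23 of them. Lipid library 21 and empty library 19 had a step near 1, so their reads were not accepted and they were left out of count models. Genes above 10 in at least 5 libraries were kept, log2(value + 1) was taken and limma 3.58.1 was fitted to all 4 groups, with edgeR 4.0.16 and DESeq2 1.42.0 on recovered reads as alternatives. Fold changes are on the log2(value + 1) scale, which understates low genes. Library measures were compared by exact permutation tests. Scripts were tested on simulated data. The leading 2 members on each side are named by ratio. The design text gives 6 per group, whereas the labels and the paper's figure legends give 7 cellulose samples. The members, lists and tests were chosen with earlier results of these data known.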

Additional observations from a re-analysis of the deposited data

Results flagged for a closer look

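Within groups of at most 7 libraries, 36 sets of values were screened for a single library far from the rest, and 6 were marked. The limit used marks about 1 in 20 of independent, normally distributed sets. These sets share libraries, and those of the leading members and of the mean log2 distance hold values that the rule read. That rate therefore does not apply, and nothing is read from the count of marks. The sets of read depth lacked lipid library 21 and empty library 19. For LABE_00025806-RA, empty library 24 stood at 961.9 normalized counts with the next at 455.0, and protein library 32 stood at 321.4 with the next at 574.4. Protein library 33 held 31.587 M reads, with the next in its group at 16.219 M. Cellulose library 27 listed 659 genes at 0, with the next cellulose library at 274, and protein library 20 listed 308, with the next protein library at 149. In the mean log2 distance over the 100 members, cellulose library 17 was lowest at 0.6221, with the next cellulose library at 0.6817.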

How the results depend on the processing

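Alternatives gave 131 values, of which 123 stayed within the limits set and 8 moved. Counts and ratios could change by a set factor, and the gap of a leading member by less than its pooled SD. These limits were wide. With a pseudocount of 5 the gap of LABE_00021316-RA went from -1.27 to -0.73 and was graded as unmoved. The tallies are thus no measure of stability. No gap of a leading member changed sign. Group medians in place of means kept 35 of the 100 members. TMM scaling kept 96, upper-quartile scaling 94, a pseudocount of 0.1 kept 97 and of 5 kept 94, no filter 97, a plain SD 96, and a minimum mean of 50 kept 69. With that minimum, 69 of the members and 13558 genes were tested. The members with limma p under 0.01 were then 27 against protein, 21 against lipid and 15 against empty. Against lipid, edgeR gave 19 and limma on the 23 libraries with recovered reads, chosen after seeing the data, gave 17, and both lack lipid library 21. Protein against empty gave 1 with edgeR and protein against lipid 2 with DESeq2, and the cause was not tested. Shares over all tested genes were not counted under these settings, so nothing is read from these counts of members.

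Leaving out 1 library at a time gave 448 values, of which 17 moved. Genes with cellulose alone ranged from 3292 to 4347, members above from 34 to 48, members kept from 54 to 88, the lowest ratio from 1.095 to 1.256, and members without overlap from 0 to 1. Members with p under 0.01 ranged from 28 to 46 against protein, 16 (without lipid library 21) to 39 against lipid, 17 (without empty library 24) to 39 (without empty library 15) against empty, and 0 to 1 in protein against empty. Shares over all tested genes were not counted in these choices and fits, so the ranges are a description. No paired analysis was made, because the labels used here record no link between libraries of different groups. Whether intestines were handled in blocks is not known. With 6 or 7 fish a group and 10.16 M reads or more, members under 10 reads are limited by counting error.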
